A study of Mus musculus with 8 samples.

Results

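The synaptic vesicle and exocytosis genes described here are the gene symbols of a fixed naming pattern in the deposited expression tables, covering the synaptotagmins, synapsins, synaptophysin, synaptogyrins, vesicle-associated membrane proteins, syntaxins and their binding proteins, the SNAP proteins, SV2 proteins, complexins, RIM and Unc13 proteins, Nsf and 3 secretogranins. The pattern matched 76 of the 23997 symbols. Of the 76 members, 62 averaged 1 FPKM or more across the libraries and were tested, and 14 lay below that level. The syntaxin 4 gene is listed as Stx4a, and a Munc18-3 gene, listed as Stxbp3a, falls outside the pattern. FPKM divides the fragments counted for a gene by its transcript length and by library size, so it is a level per length. The cells were mouse neural stem/precursor cells, cultured from ICR telencephalon at E11.5 (day 11 in the stage label) on coated dishes with bFGF, a mitogen, at 10 ng/mL. Cells transduced with Nfia, a transcription factor gene of the nuclear factor I (NFI) family, gave 3 libraries, and control cells gave 3. Transcriptomes were taken 3 days after transduction. No source used here gives the vector, its promoter or what the control cells received. None says that a group's libraries are separate cultures, so the p-values measure the spread between libraries, which may be technical. The Flag ChIP and IgG ChIP samples of the series are not analysed here.

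Neurons release transmitter when a vesicle fuses with the plasma membrane. The vesicle R-SNARE synaptobrevin pairs with the Q-SNAREs syntaxin and SNAP-25, calcium binds a synaptotagmin to trigger fusion, and the ATPase NSF takes the complex apart again. Most of these proteins have relatives that run general membrane traffic in all cells, while the neuronal forms are switched on as neurons are born.

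Nfia itself was at 69.05, 85.6 and 104 FPKM in Nfia-transduced cells, against 19.8, 23.9 and 22.2 FPKM in control cells, with no overlap between the groups. Precursor markers were present in every library, with Sox2 at 247, 238 and 229.6 FPKM in Nfia-transduced cells, against 222, 238 and 228 FPKM in control cells, and of the 10 in the list 4 were higher and 3 lower. The 16 neuron markers summed to 1475 to 1488 FPKM in Nfia-transduced and 2212 to 2280 FPKM in control cells, so the cultures also held neuronal transcripts. The 8 oligodendrocyte lineage markers summed to 1054 to 1115 FPKM with Nfia and 363 to 410.2 FPKM in control, most of it from Olig1 and Olig2, and 2 of 7 tested were higher and 2 lower. The 8 astrocyte markers summed to 338 to 351 FPKM with Nfia and 246 to 273 FPKM in control, with 2 of 6 higher and 2 lower. Over all genes tested, 15.1% were lower and 16.1% higher. The part of these markers in the results below was not tested. The 6 microglia markers summed to 0.865 to 1.401 FPKM with Nfia and 1.38 to 1.72 FPKM in control, and the 5 erythroid markers to 0.555 to 0.914 FPKM with Nfia and 0.570 to 1.49 FPKM in control, with no member of either list tested. The 6 endothelial and mural markers summed to 4.25 to 5.23 FPKM with Nfia and 6.80 to 9.67 FPKM in control, with 2 of 3 tested lower. The 6 mesenchyme markers summed to 7.72 to 19.8 FPKM with Nfia and 6.88 to 15.1 FPKM in control, with 0 of 4 called. The 6 neuroendocrine markers summed to 196 to 207 FPKM with Nfia and 192 to 196 FPKM in control, with Dbh listed at 0. The files hold no counts, and the steps between low values put the depth of the libraries at 0.760 to 1.11 of that of control 1.

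More vesicle and exocytosis genes were lower than higher with Nfia. Of the 62 tested, 23 were lower and 7 higher at an adjusted p under 0.05 by limma (37.1% and 11.3%), and 32 did not pass. Over all 12537 genes tested, 15.1% were lower and 16.1% higher, 31.3% in all. The median log2 difference, as Nfia minus control of log2(FPKM + 1) values, was -0.20 over the members and 0.01 over all genes tested. All 3 Nfia libraries lay below all 3 control libraries in 30 members and above them in 11, against 22.9% and 24.7% of all genes tested (47.7% in all). Of the 30 calls, 19 stood whichever library was dropped. Without control 3 the count of lower members was 14 of 62. Over all genes, 1333 of 12503 were lower in that fit, against 1898 of 12537 with all libraries. Differences of the members were small in size, from -0.80 for Syt5 to 0.67 for Syngr2.

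**Figure D1:**
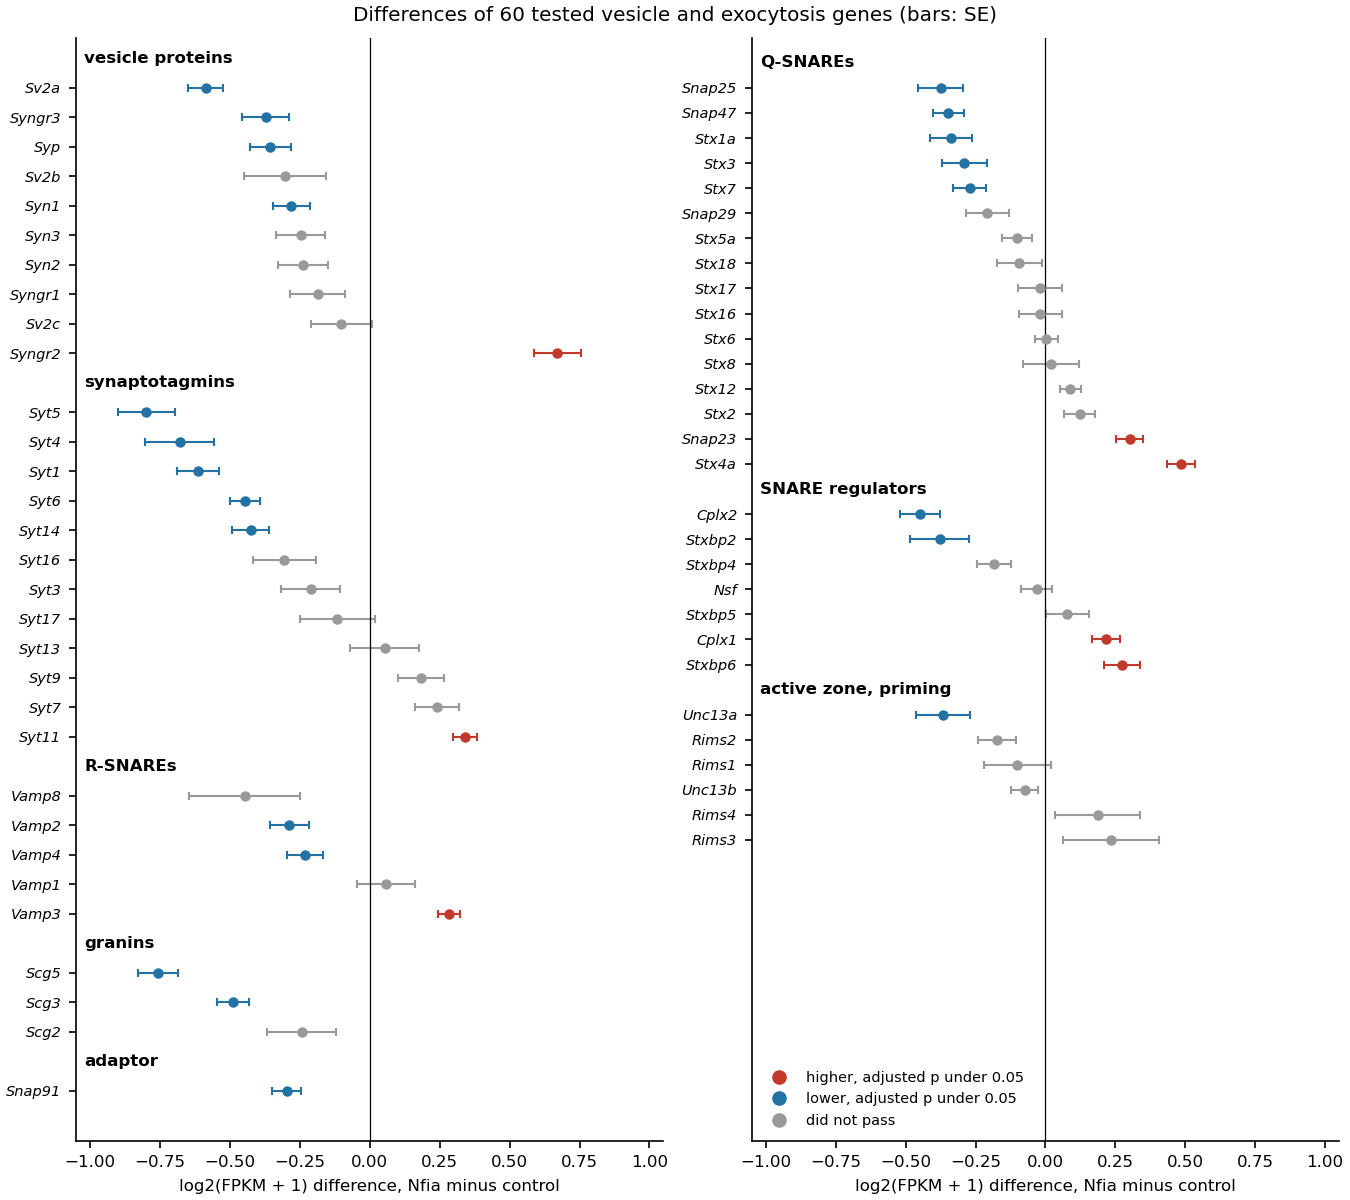
Log2(FPKM + 1) differences, Nfia minus control, of 60 of the tested genes, by role, with SE bars; red marks genes higher and blue genes lower with Nfia (adjusted p under 0.05), grey those that did not pass. The 22 blue points lie between -0.80 and -0.23 and the 7 red points between 0.22 and 0.67.

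Counted by known role, decreases were more frequent among the genes of neuronal release. Of 32 genes of regulated release in neurons, 30 were tested, and 16 were lower and 1, the complexin gene Cplx1, was higher (53.3% and 3.33%), with a median log2 difference of -0.28. Without control 3 the lower count was 10, in a fit where 1333 of 12503 genes were lower. Of 26 genes of general membrane traffic, 22 were tested, with a median of -0.05. In this class 5 were lower and 4 higher (22.7% and 18.2%, against 15.1% and 16.1% of all genes tested). The lower count in that class was 2 to 3 when any 1 library was left out, and 2 without Nfia 3 or control 3. The 18 remaining members, mostly synaptotagmins of varied role, were placed in neither class. They gave 10 tested genes, with 2 lower, 2 higher and a median of -0.03. The classes were set by textbook role with earlier results of these data known, and no test of the difference between them was run. The contrast is a description that depends on where genes were placed. The calcium sensor gene Syt7, the SNARE-binding inhibitor gene Stxbp6 and Syt9 (log2 differences 0.24, 0.27 and 0.18) were counted among the remaining members. So was Syt11 (0.34), which was called higher and averaged 162 FPKM with Nfia and 128 FPKM in control. Syt4 (-0.68), also a synaptotagmin that is no calcium sensor for release, was counted with neuronal release. Of the 10 tested remaining members, 5 had a difference below 0.

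**Figure D2:**
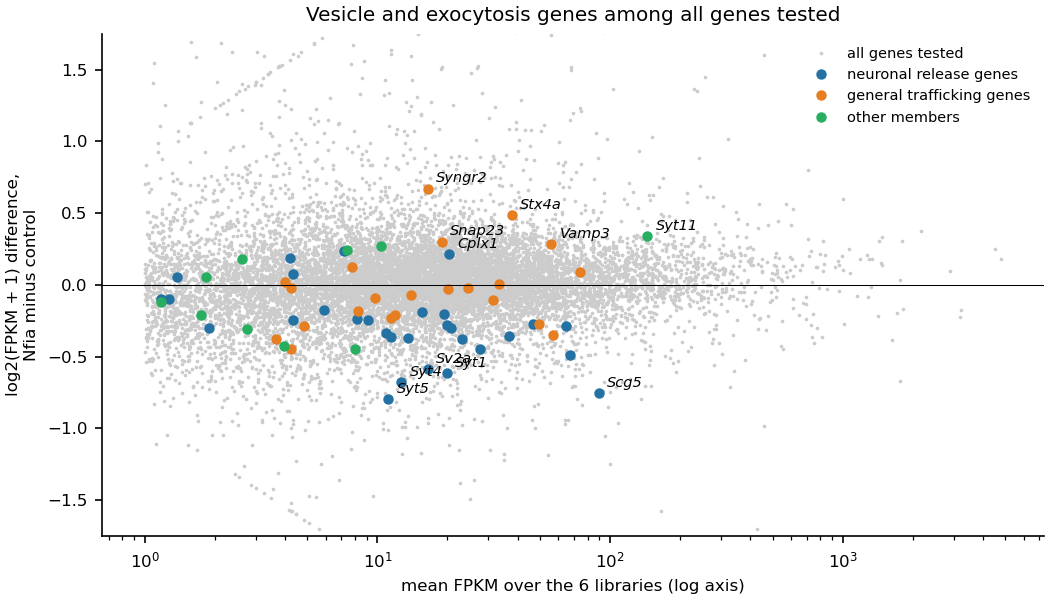
Log2(FPKM + 1) difference, Nfia minus control, against the mean FPKM of the 6 libraries on a log axis, for all 12537 genes tested (grey) and the 62 tested members, coloured by class; 138 genes lie beyond the vertical axis. Most neuronal release genes lie below 0, while Syngr2, Stx4a, Vamp3, Snap23, Cplx1 and Syt11 lie above it.

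The counts by protein group from here on are to be read beside the shares over all genes tested, 15.1% lower and 16.1% higher. Among the proteins of the vesicle membrane and surface, 4 of 10 tested were lower and 1 higher with Nfia. Sv2a, a membrane glycoprotein of synaptic vesicles, was at 11.97, 13.5 and 13.5 FPKM in Nfia-transduced cells, against 19.9, 19.1 and 20.99 FPKM in control cells. Its mean with Nfia was 0.650 of that in control, with no overlap (log2 difference -0.59, SE 0.06, adjusted p = 0.00118). Syp, which encodes synaptophysin, the most used marker of synaptic vesicles, was at 30.2, 31.6 and 34.5 FPKM in Nfia-transduced cells, against 39.9, 38.9 and 45.2 FPKM in control cells. Every Nfia library was below every control library (log2 difference -0.36, SE 0.07, adjusted p = 0.0126). Syngr3, a synaptogyrin of neuronal vesicles, was at 10.7, 12.9 and 11.4 FPKM in Nfia-transduced cells, against 15.9, 13.9 and 16.3 FPKM in control cells, and the groups did not overlap (log2 difference -0.37, SE 0.08, adjusted p = 0.017). Leaving out control 1 or control 3 ended the call (adjusted p = 0.0551 and 0.059). Syn1, the synapsin that tethers vesicles to the cytoskeleton, was at 16.8, 17.96 and 18.7 FPKM in Nfia-transduced cells, against 20.2, 23.4 and 21.9 FPKM in control cells, lower in every library with Nfia (log2 difference -0.28, SE 0.07, adjusted p = 0.0195). That call ended without Nfia 1, Nfia 2, control 2 or control 3 (adjusted p = 0.0554, 0.0569, 0.0529 and 0.0608). The spans of Araf and Timp1 overlap that of Syn1. The other synapsins pointed the same way without passing the test, Syn2 with means of 7.42 ± 0.989 FPKM with Nfia and 8.90 ± 0.292 FPKM in control (SD, n = 3 each, as for every ± value of a gene below; adjusted p = 0.0858) and Syn3 with means of 3.89 ± 0.458 FPKM with Nfia and 4.79 ± 0.309 FPKM in control (adjusted p = 0.0751). Both passed without Nfia 3 (adjusted p = 0.0313 for Syn2 and 0.0342 for Syn3).

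The member that was higher was Syngr2, the synaptogyrin that non-neuronal cells also make. It was at 18.8, 21.2 and 21.1 FPKM in Nfia-transduced cells, against 11.2, 13.9 and 12.2 FPKM in control cells. All Nfia libraries lay above all control libraries, a ratio of means of 1.64 and the largest positive log2 difference among the tested members (log2 difference 0.67, SE 0.08, adjusted p = 0.00212). Syngr1, the other neuronal synaptogyrin, averaged 14.5 ± 2.07 FPKM with Nfia and 16.6 ± 0.471 FPKM in control and did not pass (adjusted p = 0.19). Neither did Sv2b and Sv2c, which were low, at 1.15 to 2.03 FPKM in Nfia-transduced and 1.15 to 2.42 FPKM in control cells.

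Of 12 synaptotagmin genes tested, 5 were lower and 1 higher. Syt1, the fast calcium sensor of transmitter release, was at 14.01, 15.7 and 16.8 FPKM in Nfia-transduced cells, against 24.99, 22.5 and 25.1 FPKM in control cells. The Nfia libraries were all below the control libraries, with a mean of 0.640 of that in control (log2 difference -0.61, SE 0.08, adjusted p = 0.00195). Syt5, a vesicle synaptotagmin of the same broad type, was at 8.01, 8.002 and 7.48 FPKM in Nfia-transduced cells, against 16.3, 12.1 and 14.98 FPKM in control cells. It had the largest decrease of any member, to 0.542 of the control mean (log2 difference -0.80, SE 0.10, adjusted p = 0.00225). Syt4, a synaptotagmin that does not act as a calcium sensor for release and is found on dense-core vesicles, was at 7.86, 10.3 and 10.3 FPKM in Nfia-transduced cells, against 15.8, 13.8 and 17.7 FPKM in control cells. The groups again did not overlap (log2 difference -0.68, SE 0.12, adjusted p = 0.00777). Syt6 was at 6.75, 6.67 and 6.54 FPKM in Nfia-transduced cells, against 9.10, 9.26 and 9.91 FPKM in control cells (log2 difference -0.45, SE 0.05, adjusted p = 0.00162). Syt14, which lacks calcium binding, was at 3.19, 3.35 and 3.18 FPKM in Nfia-transduced cells, against 4.43, 4.83 and 4.82 FPKM in control cells (log2 difference -0.43, SE 0.07, adjusted p = 0.00446). In both the Nfia libraries were all lower. These 5 calls held without any 1 library.

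Syt11, a synaptotagmin without calcium binding that is linked to vesicle recycling, had the highest level of all members in both groups. It was at 156, 163 and 167 FPKM in Nfia-transduced cells, against 129, 126 and 128 FPKM in control cells. All Nfia libraries were higher, by a ratio of means of 1.27 (log2 difference 0.34, SE 0.04, adjusted p = 0.00225). Syt7, a slow high-affinity calcium sensor that also serves lysosome exocytosis, was at 7.47, 8.01 and 8.92 FPKM in Nfia-transduced cells, against 6.30, 6.63 and 7.25 FPKM in control cells. The groups did not overlap, but the difference did not pass (adjusted p = 0.0584). It did pass with Nfia 1 left out (adjusted p = 0.0482). Syt9, Syt13, Syt16, Syt17 and Syt3 were at 0.928 to 2.91 FPKM with Nfia and 1.01 to 3.46 FPKM in control, and none passed, although Syt16 did without control 2 (adjusted p = 0.0369).

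Promoter windows from RefSeq (GRCm38.p6, the 250 bases before and the 50 after each gene's start) were matched for 57 of the 76 members. Snap25, Vamp2, Vamp3, Syt4 and Syt5 are among the 19 not matched. The full NFI palindrome, TTGGC and GCCAA with 5 bases between, was in none of the 57 members and in 0.044% of all 27025 genes with a window. Its core TTGGC, on either strand, was in 28 of the 57 members, and in 50.4% of all genes. Among the called members it was in 9 of 17 lower and 3 of 6 higher genes. RE1, the element of the repressor REST, which keeps neuron genes silent outside neurons, was searched by its left part TTCAGCACC. That word was in 3 of the 57 members, Syn1, Scg2 and Unc13a, and in 0.433% of all genes. The right part GGACAG, a shorter word, was in 15 members and in 24.7% of all genes, and the cyclic AMP response element TGACGTCA was in Syn1 and Scg2 and in 2.03% of all genes. Both strands were searched for each word, the TTGGC core lies within the palindrome, and a match describes letters, not a site in use.

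Syn1 and Scg2 are shown because they carry the left RE1 word and the cyclic AMP word, and Syt1 (1 of its 2 windows) and Syngr2 because they moved in opposite directions while both carry the NFI core. Each line runs 5′ to 3′ on the gene's strand up to the start, and for Scg2 up to the last base of the left RE1 word. Capitals mark the RE1 words found and the cyclic AMP word in Syn1 and Scg2, and the NFI core in Syt1 and Syngr2. Syn1 lies at chrX:20920919-20921168 (minus strand), Scg2 at chr1:79440025-79440276 (minus), Syt1 at chr10:109010976-109011225 (minus) and Syngr2 at chr11:117809417-117809666 (plus), all in GRCm38.p6.
Syn1: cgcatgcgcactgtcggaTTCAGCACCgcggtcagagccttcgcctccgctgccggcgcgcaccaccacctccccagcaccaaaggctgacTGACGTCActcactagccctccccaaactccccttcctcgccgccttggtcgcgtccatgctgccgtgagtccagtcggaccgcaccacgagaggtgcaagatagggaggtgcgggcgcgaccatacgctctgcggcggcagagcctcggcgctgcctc
Scg2: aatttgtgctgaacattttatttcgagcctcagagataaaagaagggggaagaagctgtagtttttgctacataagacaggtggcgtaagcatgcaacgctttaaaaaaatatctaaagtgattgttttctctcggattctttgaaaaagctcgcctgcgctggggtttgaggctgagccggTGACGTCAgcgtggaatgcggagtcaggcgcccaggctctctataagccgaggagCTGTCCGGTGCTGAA
Syt1: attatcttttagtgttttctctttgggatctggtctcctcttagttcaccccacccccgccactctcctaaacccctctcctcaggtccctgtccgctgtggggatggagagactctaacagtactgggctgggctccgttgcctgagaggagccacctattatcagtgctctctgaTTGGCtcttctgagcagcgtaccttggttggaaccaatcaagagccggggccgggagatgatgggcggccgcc
Syngr2: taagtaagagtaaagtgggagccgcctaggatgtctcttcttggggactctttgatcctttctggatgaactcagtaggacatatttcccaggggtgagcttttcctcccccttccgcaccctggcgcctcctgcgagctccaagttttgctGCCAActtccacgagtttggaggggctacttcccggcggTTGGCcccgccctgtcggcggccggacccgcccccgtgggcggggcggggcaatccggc

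In Scg2 the left and right RE1 words lie side by side on the opposite strand, from position -13 to position 2, counted from the start. Unc13a has the left word at 23 to 31 and a right word at 9 to 14, both on the opposite strand, with other bases between them. In Syn1 the left word lies at -232 to -224, and the exact right word is absent from the window. The letters gcggtcag follow the left word directly, and ggtcag differs from GGACAG in a single base. Inexact words were not counted in other members or genes, so this near match has no share to be read beside it. In Syngr2 the core occurs at -98 to -94 and at -59 to -55, and in Syt1 at -73 to -69. Of the 3 members with the left word, Syn1 and Unc13a were lower with Nfia and Scg2 did not pass. Rest, the gene of the RE1 repressor, was at 5.96, 5.88 and 6.70 FPKM in Nfia-transduced cells, against 4.87, 5.28 and 5.83 FPKM in control cells, and did not pass (adjusted p = 0.127).

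Of the 5 R-SNARE genes tested, 2 were lower and 1 higher. Vamp2, the synaptobrevin of synaptic vesicles, was at 55.3, 55.95 and 62.5 FPKM in Nfia-transduced cells, against 65.7, 75.6 and 71.5 FPKM in control cells. It was lower in every Nfia library, at 0.817 of the control mean (log2 difference -0.29, SE 0.07, adjusted p = 0.0217). The call ended without Nfia 1, Nfia 2, control 2 or control 3 (adjusted p = 0.0621, 0.0751, 0.0629 and 0.0668). Vamp3, or cellubrevin, the close relative that most cells use for recycling endosomes, was at 62.8, 61.5 and 59.7 FPKM in Nfia-transduced cells, against 51.1, 50.2 and 49.3 FPKM in control cells. It was higher in every Nfia library (log2 difference 0.28, SE 0.04, adjusted p = 0.00291), and the call stood whichever library was dropped. Vamp4, a SNARE of the trans-Golgi network, was at 10.8, 10.5 and 9.75 FPKM in Nfia-transduced cells, against 12.2, 11.6 and 13.3 FPKM in control cells, without overlap (log2 difference -0.23, SE 0.06, adjusted p = 0.034). Its call ended without Nfia 2, Nfia 3, control 1 or control 3 (adjusted p = 0.0805, 0.0876, 0.0774 and 0.1003). Vamp8, of late endosomes, averaged 3.43 ± 0.744 FPKM with Nfia and 5.10 ± 1.53 FPKM in control (adjusted p = 0.133), with no overlap between groups but a wide spread in control. Vamp1, the synaptobrevin of spinal and brainstem neurons, averaged 1.43 ± 0.165 FPKM with Nfia and 1.33 ± 0.0806 FPKM in control (adjusted p = 0.706).

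Of 17 Q-SNARE genes tested, 5 were lower and 2 higher. Snap25, the neuronal plasma membrane SNARE, was at 17.8, 20.3 and 21.9 FPKM in Nfia-transduced cells, against 25.5, 25.2 and 27.8 FPKM in control cells. All Nfia libraries were below all control libraries (log2 difference -0.37, SE 0.08, adjusted p = 0.0138). Snap23, its widely expressed relative, was at 21.00, 19.9 and 22.1 FPKM in Nfia-transduced cells, against 16.95, 16.9 and 16.8 FPKM in control cells, where the control libraries were nearly level and every Nfia library was higher (log2 difference 0.30, SE 0.05, adjusted p = 0.005). Snap47, a further SNAP protein found in neurons and other cells, was at 47.02, 51.9 and 50.8 FPKM in Nfia-transduced cells, against 66.6, 63.9 and 60.8 FPKM in control cells, lower in each Nfia library (log2 difference -0.35, SE 0.06, adjusted p = 0.0048). The span of Jmjd4 overlaps that of Snap47. Snap29, of intracellular membranes, averaged 11.02 ± 0.862 FPKM with Nfia and 12.9 ± 1.02 FPKM in control and did not pass (adjusted p = 0.0829).

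The syntaxins of the plasma membrane went both ways. Stx1a, the neuronal syntaxin that pairs with SNAP-25, was at 9.05, 9.13 and 10.3 FPKM in Nfia-transduced cells, against 12.7, 11.1 and 12.9 FPKM in control cells, with no overlap (log2 difference -0.34, SE 0.07, adjusted p = 0.0153). Its call ended without Nfia 2, control 1 or control 3 (adjusted p = 0.0571, 0.0515 and 0.0549). Stx4a, the syntaxin 4 gene, whose product serves plasma membrane fusion in many non-neuronal cells, was at 45.2, 42.8 and 44.8 FPKM in Nfia-transduced cells, against 30.1, 33.2 and 30.8 FPKM in control cells. It was higher in every Nfia library, by a ratio of means of 1.41 (log2 difference 0.48, SE 0.05, adjusted p = 0.00108). Stx3, used in apical and dendritic exocytosis, was at 3.99, 4.72 and 4.02 FPKM in Nfia-transduced cells, against 5.33, 5.11 and 5.77 FPKM in control cells, without overlap (log2 difference -0.29, SE 0.08, adjusted p = 0.0341). Its call ended without Nfia 1, Nfia 3 or any of the 3 control libraries (adjusted p = 0.0536 to 0.1079). Stx2 averaged 8.16 ± 0.451 FPKM with Nfia and 7.41 ± 0.0886 FPKM in control and did not pass (adjusted p = 0.138).

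Among the syntaxins of internal membranes, Stx7, of endosomes, was lower (44.7, 45.97 and 43.7 FPKM in Nfia-transduced cells, against 58.3, 50.5 and 54.2 FPKM in control cells; log2 difference -0.27, SE 0.06, adjusted p = 0.0145), and the groups did not overlap. The others did not pass, and their differences were small. They were Stx5a, Stx6, Stx8, Stx12, Stx16, Stx17 and Stx18, of the Golgi, endosomes, autophagosomes and endoplasmic reticulum, with log2 differences of -0.10 to 0.09. Stx12 was the most abundant syntaxin, at 75.98, 77.6 and 75.1 FPKM in Nfia-transduced cells, against 73.4, 71.2 and 70.2 FPKM in control cells (adjusted p = 0.125). Stx6 was at 33.2 ± 1.03 FPKM with Nfia and 33.1 ± 0.484 FPKM in control, with a log2 difference of 0.00.

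Of the 8 tested genes for proteins that act on SNAREs, 3 were lower and 2 higher. Stxbp2, the Munc18-2 gene of blood and epithelial cells, was at 2.97, 2.99 and 3.17 FPKM in Nfia-transduced cells, against 3.52, 4.77 and 4.55 FPKM in control cells, without overlap (log2 difference -0.38, SE 0.11, adjusted p = 0.0346). That call ended without any library but control 1 (adjusted p = 0.0629 to 0.1066). Stxbp6, or amisyn, a SNARE-binding inhibitor, was at 10.4, 11.9 and 11.99 FPKM in Nfia-transduced cells, against 9.52, 8.91 and 9.39 FPKM in control cells. It was higher in every Nfia library (log2 difference 0.27, SE 0.06, adjusted p = 0.0197), a call lost without Nfia 2, Nfia 3, control 2 or control 3 (adjusted p = 0.0727, 0.0574, 0.0603 and 0.0545). Stxbp5 (tomosyn) averaged 4.46 ± 0.193 FPKM with Nfia and 4.18 ± 0.363 FPKM in control (adjusted p = 0.468), and Stxbp4 7.68 ± 0.188 FPKM with Nfia and 8.87 ± 0.598 FPKM in control (adjusted p = 0.0566). Nsf, the ATPase that all SNARE complexes need, was at 19.5, 19.7 and 20.7 FPKM in Nfia-transduced cells, against 19.9, 21.8 and 19.6 FPKM in control cells, with overlapping groups and a log2 difference of -0.03 (SE 0.05, adjusted p = 0.685).

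The complexins, small clamps of the SNARE complex, moved apart. Cplx2 was at 20.6, 24.1 and 24.8 FPKM in Nfia-transduced cells, against 31.1, 32.6 and 31.99 FPKM in control cells. It was lower in every Nfia library, at 0.726 of the control mean (log2 difference -0.45, SE 0.07, adjusted p = 0.00492). Cplx1 was at 23.2, 21.2 and 21.4 FPKM in Nfia-transduced cells, against 18.7, 19.3 and 18.3 FPKM in control cells. It was higher in every Nfia library (log2 difference 0.22, SE 0.05, adjusted p = 0.0182), and leaving out control 1 or control 3 ended that call (adjusted p = 0.053 and 0.0646). Cplx1 was the 1 neuronal release gene called higher.

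The scaffolds and priming factors of the active zone, where vesicles dock, gave 6 tested genes, with 1 lower and 0 higher. The lower share, 16.7%, was close to the 15.1% of all genes tested. Unc13a, the Munc13-1 gene needed to prime vesicles, was at 9.01, 9.36 and 11.3 FPKM in Nfia-transduced cells, against 11.98, 12.96 and 14.1 FPKM in control cells (log2 difference -0.37, SE 0.10, adjusted p = 0.0278). The groups did not overlap, and the call ended without Nfia 1, Nfia 2, control 2 or control 3 (adjusted p = 0.075, 0.0888, 0.071 and 0.0866). The span of Colgalt1 overlaps that of Unc13a. Unc13b, the Munc13-2 gene, averaged 13.6 ± 0.566 FPKM with Nfia and 14.4 ± 0.314 FPKM in control (adjusted p = 0.274). The RIM scaffold genes did not pass, with Rims1 at 1.09 ± 0.113 FPKM with Nfia and 1.25 ± 0.212 FPKM in control, Rims2 at 5.50 ± 0.351 FPKM with Nfia and 6.33 ± 0.358 FPKM in control, Rims3 at 7.85 ± 1.54 FPKM with Nfia and 6.53 ± 1.36 FPKM in control and Rims4 at 4.55 ± 1.06 FPKM with Nfia and 3.83 ± 0.442 FPKM in control (adjusted p = 0.0949 to 0.563). Rims3 and Rims4 had positive log2 differences of 0.24 and 0.19.

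Of the 3 secretogranin genes, whose products are cargo or sorting proteins of dense-core granules, 2 were lower and 1 did not pass. Scg5, which encodes the 7B2 chaperone of prohormone convertase 2, was at 70.7, 66.6 and 61.2 FPKM in Nfia-transduced cells, against 121, 106 and 110.4 FPKM in control cells. Every Nfia library was below every control library, at 0.589 of the control mean (log2 difference -0.76, SE 0.07, adjusted p = 0.000719), the smallest adjusted p among the members. Scg3, a granin that binds cargo to granule membranes, was at 57.8, 55.3 and 54.3 FPKM in Nfia-transduced cells, against 84.6, 76.6 and 75.01 FPKM in control cells, again with no overlap (log2 difference -0.49, SE 0.06, adjusted p = 0.00159). Scg2, the secretoneurin precursor gene, was at 6.60, 8.95 and 9.22 FPKM in Nfia-transduced cells, against 9.67, 9.17 and 10.8 FPKM in control cells. Its Nfia 3 library lay just above control 2, and the difference did not pass (adjusted p = 0.178). Snap91, the AP180 clathrin adaptor that retrieves vesicle membrane, was at 17.5, 18.5 and 19.6 FPKM in Nfia-transduced cells, against 23.3, 23.2 and 22.4 FPKM in control cells, lower in every Nfia library (log2 difference -0.30, SE 0.05, adjusted p = 0.00699).

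The 14 members below a mean of 1 FPKM were not tested. Cplx4, Syt8 and Vamp7 were listed at 0 in all 6 libraries. Such a 0, for Vamp7 above all, may be a failed estimate, which cannot be told here from an absent transcript. Cplx3, Syt2, Syt10, Syt15, Syngr4, Vamp5, Stx19, Unc13c and Unc13d were at 0 to 0.562 FPKM with Nfia and 0 to 0.717 FPKM in control, with overlapping groups. In Stx11, a syntaxin of immune cells, the groups did not overlap, at 0.499, 0.397 and 0.525 FPKM in Nfia-transduced cells, against 0.247, 0.0595 and 0.167 FPKM in control cells. Syt12 was at 0.759, 0.557 and 0.710 FPKM in Nfia-transduced cells, against 0.332, 0.314 and 0.509 FPKM in control cells, also without overlap.

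Relatives of the same family went in opposite directions in 6 pairs picked after their values were seen, so their ratios are a description. Snap23 over Snap25 was 1.18, 0.980 and 1.01 in the Nfia libraries and 0.664, 0.669 and 0.603 in the control libraries. Vamp3 over Vamp2 was 1.13, 1.10 and 0.956 with Nfia and 0.778, 0.665 and 0.690 in control. In both pairs the neuronal form exceeded its relative in control, and the levels were close to equal with Nfia. Stx4a over Stx1a averaged 4.68 ± 0.314 with Nfia and 2.58 ± 0.348 in control (SD, n = 3 each), and Syngr2 over Syngr3 1.755 ± 0.103 with Nfia and 0.819 ± 0.160 in control. Syt11 over Syt1 averaged 10.5 ± 0.588 with Nfia and 5.28 ± 0.262 in control. Cplx1 over Cplx2, where both forms are neuronal, averaged 0.958 ± 0.148 with Nfia and 0.588 ± 0.0147 in control. In each of the 6 pairs every Nfia library was above every control library for the first gene and below for the second. The ratios of the groups therefore could not overlap.

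**Figure D3:**
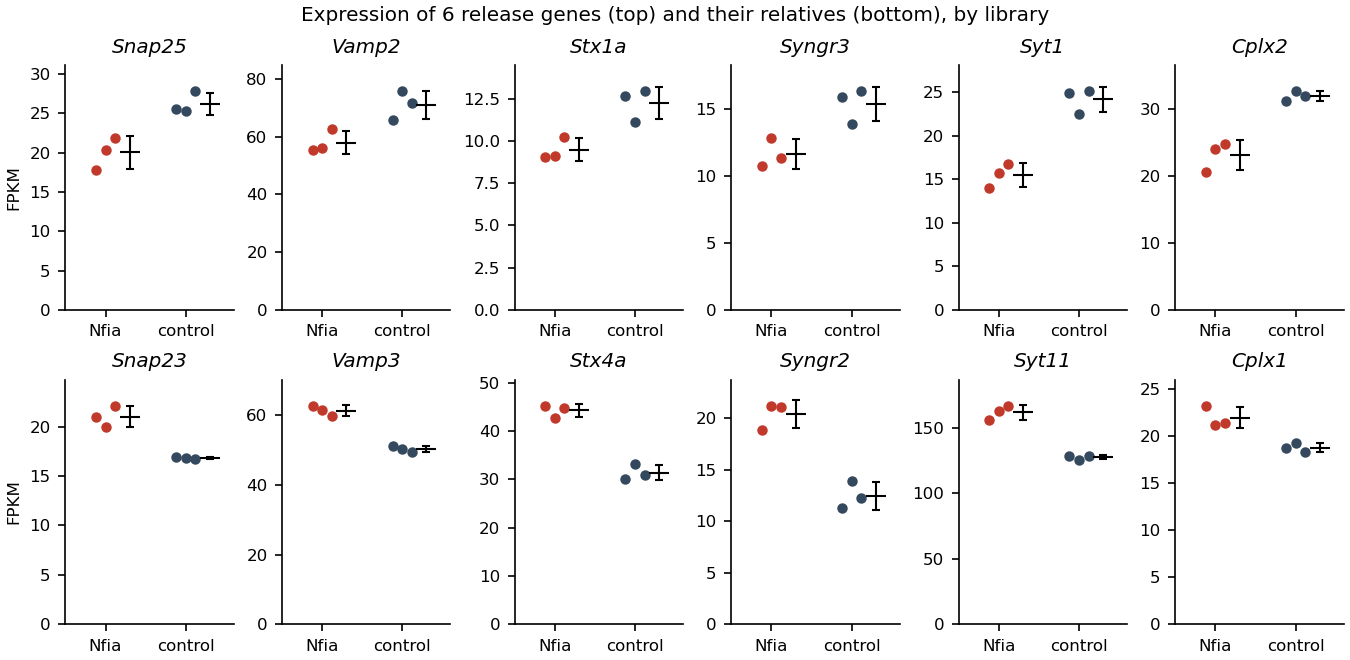
FPKM by library of 6 release genes (top row) and of a relative of each (bottom row), with group means and SD to the right of the points. The pairs were picked after their values were seen, so that the Nfia libraries lie below the control libraries in every top panel and above them in every bottom panel.

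Levels were also summed over each class. The 32 neuronal release genes summed to 495, 514 and 530 FPKM in the Nfia libraries and 680, 666 and 693 FPKM in the control libraries, so Nfia stood at 75.4 ± 2.60% of the control mean (SD, n = 3). This sum includes the 3 secretogranin genes of dense-core granules. They gave 130 FPKM of the mean sum of 513 FPKM with Nfia, and 201 FPKM of 680 FPKM in control. The 26 general trafficking genes, with Vamp7 listed at 0, summed to 503, 507 and 506 FPKM with Nfia and 506, 501 and 496 FPKM in control, or 101 ± 0.415%. This level sum does not mean unchanged genes, since 4 of the 22 tested were higher and 5 lower. Rises such as that of Stx4a (31.4 FPKM in control, 44.3 FPKM with Nfia) offset falls such as that of Snap47 (63.8 and 49.9 FPKM). The remaining 18 members summed to 195, 204 and 209 FPKM with Nfia and 169, 166 and 173 FPKM in control, a sum made mostly of Syt11. Counted with the neuronal release genes, Syt11 would make the fall of their sum smaller. The 16 neuron markers stood at 66.1 ± 0.287% of their control mean with Nfia. Of these markers 12 were lower and 1 higher, with Tubb3 at 319.8, 309 and 291 FPKM in Nfia-transduced cells, against 651, 602 and 574 FPKM in control cells, and their median log2 difference was -0.52 against -0.28 for the neuronal release genes. In bulk RNA, fewer neurons and less of these transcripts per neuron cannot be told apart, and the part of either was not tested.

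**Figure D4:**
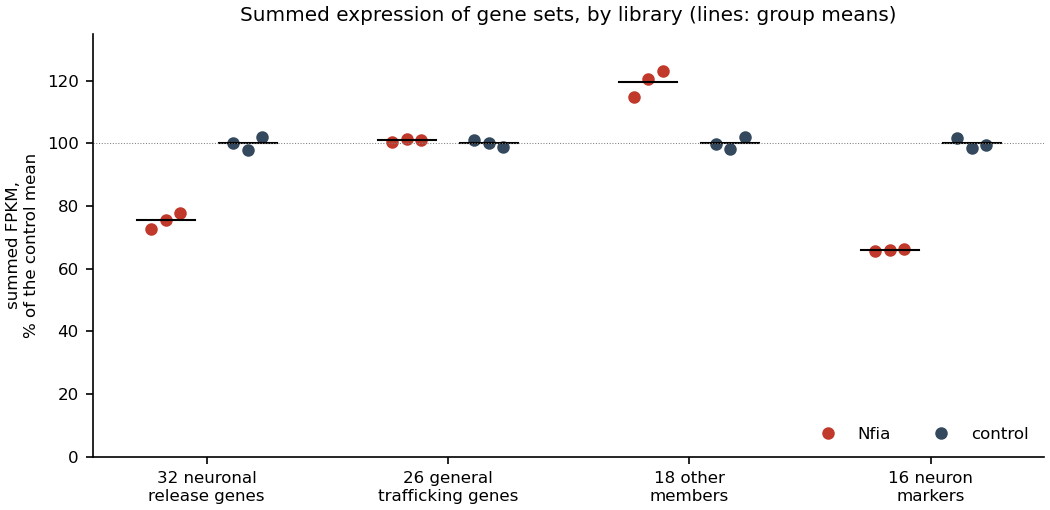
Summed FPKM of 4 gene sets in each library, in percent of the control mean of the set; points are libraries and lines group means. The neuronal release genes stand at 72.7 to 77.9% and the neuron markers at 65.8 to 66.4% in the Nfia libraries, while the general trafficking genes stand at 100.5 to 101.3%, a sum of genes called in both directions.

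Partners of these genes outside the naming pattern were counted in lists set by role, with earlier results of these data known. The shares over all genes tested, to be read beside each count below, were 15.1% lower and 16.1% higher. Of 24 active zone and docking partners tested, 7 were lower and 0 higher, with a median log2 difference of -0.14. Among them Rab3a, a small GTPase of synaptic vesicles, averaged 41.6 ± 1.21 FPKM with Nfia and 58.3 ± 1.79 FPKM in control, and its relative Rab3c 7.92 ± 0.918 FPKM with Nfia and 13.02 ± 1.02 FPKM in control. Napb, the neuronal adaptor of NSF, was lower too, at 8.51 ± 0.267 FPKM with Nfia and 13.5 ± 0.844 FPKM in control, while its general form Napa averaged 42.5 ± 1.29 FPKM with Nfia and 42.7 ± 0.592 FPKM in control and did not pass (adjusted p = 0.915). Cask, a presynaptic scaffold kinase, was also lower (log2 difference -0.38, SE 0.04, adjusted p = 0.00131). Of 7 genes of transmitter synthesis, uptake and loading, 4 were lower and 0 higher, with a median of -0.42. Slc32a1, the vesicular GABA transporter, averaged 9.48 ± 0.535 FPKM with Nfia and 14.4 ± 0.869 FPKM in control and Gad2, which makes GABA, 12.7 ± 0.716 FPKM with Nfia and 21.8 ± 1.94 FPKM in control. Slc17a6, a vesicular glutamate transporter, and Slc18a2, the vesicular monoamine transporter, were lower too (adjusted p = 0.0248 for Slc17a6 and 0.0419 for Slc18a2), but both calls ended without Nfia 1, Nfia 2 or any 1 control library (adjusted p = 0.0529 to 0.122).

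Dense-core cargo and processing genes had the highest share of decreases among these lists, with 10 of 14 tested lower and 0 higher and a median log2 difference of -0.51. The carboxypeptidase gene Cpe averaged 161 ± 3.54 FPKM with Nfia and 233 ± 5.23 FPKM in control, the chromogranin gene Chga 11.8 ± 0.548 FPKM with Nfia and 17.3 ± 0.145 FPKM in control and the neuropeptide gene Npy 13.6 ± 0.708 FPKM with Nfia and 27.001 ± 3.81 FPKM in control. Scgn, a calcium sensor of secretory cells, was at 2.38, 2.49 and 1.81 FPKM in Nfia-transduced cells, against 9.18, 7.06 and 7.58 FPKM in control cells, without overlap (log2 difference -1.47, SE 0.12, adjusted p = 0.000512). Vesicle endocytosis genes were mixed, with 6 of 22 lower, 2 higher and a median of -0.01. Dnm1, the neuronal dynamin, was lower (7.82 ± 1.36 FPKM with Nfia and 11.7 ± 0.465 FPKM in control), as was Synj1, which uncoats vesicles (9.42 ± 0.110 FPKM with Nfia and 11.9 ± 0.697 FPKM in control). Amph and Bin1, which encode amphiphysins, were higher, Amph at 15.2 ± 0.909 FPKM with Nfia and 9.94 ± 0.903 FPKM in control and Bin1 at 63.8 ± 1.06 FPKM with Nfia and 55.2 ± 1.44 FPKM in control.

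Among 10 tested exocyst and Rab effector genes, 3 were lower and 1 higher. The lower ones were the exocyst tethering subunits Exoc2, Exoc5 and Exoc7 (log2 differences -0.22, -0.18 and -0.19). The calls of Exoc5 and Exoc7 ended when some single libraries were left out (adjusted p up to 0.0711 and 0.0581). The higher one was Stxbp3a, a Munc18-3 gene, the partner of syntaxin 4, at 9.05, 9.01 and 8.54 FPKM in Nfia-transduced cells, against 6.78, 6.002 and 6.82 FPKM in control cells, with no overlap (log2 difference 0.39, SE 0.06, adjusted p = 0.00511). Of 9 genes of the REST complex and other repressors of neuronal transcripts, 2 were higher and 1 lower. Ptbp1, which represses neuronal splicing, averaged 114 ± 1.71 FPKM with Nfia and 92.6 ± 2.08 FPKM in control and the phosphatase gene Ctdsp1 21.2 ± 0.488 FPKM with Nfia and 16.5 ± 1.38 FPKM in control. Kdm1a, a histone demethylase, averaged 103 ± 6.60 FPKM with Nfia and 119.8 ± 7.01 FPKM in control (adjusted p = 0.0429), a call that ended without Nfia 2, Nfia 3, control 1 or control 2 (adjusted p = 0.104 to 0.133).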

How the data were processed

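The authors deposited 1 table per RNA library with a gene symbol and an FPKM value. The tables have no header, and the unit was read from the values and the tools named. The submitters' processing notes list Cufflinks, Cuffdiff, TopHat, SAMtools, MACS 1.4 and Bowtie 1 and the build mm10, without saying which did what. Annotation, filters and strand use are not stated. A directional kit was used on poly(A) mRNA, per the labels' protocols, and 10 of 76 members overlap a protein-coding gene in RefSeq, whose reads could mix with theirs without strand.

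Genes averaging 1 FPKM or more were compared as log2(FPKM + 1), which understates changes of low genes. The test was limma (lmFit, then eBayes with trend; limma 3.58.1, R 4.3.3), two-sided, with Benjamini-Hochberg adjustment over 12537 genes and a threshold of 0.05. A fold is a ratio of mean FPKM. With 3 libraries a group, the smallest exact permutation p is 0.1. The fit was tested on simulated data. Absolute depth is unknown, so no counting interval is given. The members and lists were chosen with earlier results of these data known. Values per library are given for Syt1, Snap25, Stx1a, Vamp2, Syp, Nsf and called members without overlap, and up to 4 called genes are named per partner list. Results of 2 members are not reported here by name and count only in totals. Other genes were named after their values were seen. Alternatives were a pseudocount of 0.1, no filter, a mean of at least 5 FPKM, other scalings, no variance trend, the replicate number as a block, and leaving out each library. The ChIP samples were not used here.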

Additional observations from a re-analysis of the deposited data

How the results depend on the processing

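The direction of every called member held under all alternatives that tested it, and 19 of the 30 calls also kept their side of the threshold in all of them. The count of lower members was 23, against 14 to 22 with 1 library left out and 19 to 26 under the other settings, and the count of higher members was 7, against 5 to 8 and 7 to 9. The median log2 difference of the members, -0.20, ranged from -0.22 to -0.17 with 1 library left out and was -0.10 with no filter on low values. The lower neuronal release genes numbered 16, and 10 to 18 with 1 library left out. The lower general trafficking genes, 5, were 2 with no filter, 3 at a mean of at least 5 FPKM, 3 with the replicate block and 2 to 3 with 1 library left out. Fewer genes or libraries enter several of these fits, and beyond that the cause was not tested. Same-numbered libraries of the groups did not deviate together (correlations of 0.03, -0.01 and 0.05 over genes). Differently numbered libraries had correlations from -0.10 to 0.08. With so few libraries this check cannot tell whether same-numbered libraries share a culture or preparation. Of the 6 libraries, 1 correlated best with its own number. With the number as a block, 9 members were higher and 23 lower, and 28 of the 30 calls were shared. Over all genes, 2020 were higher and 1898 lower in the main fit. Without Nfia 2 these were 1311 and 1277, without control 3 1398 and 1333, and without Nfia 3 1724 and 1620. The counts over all genes thus also fell with 1 library left out. The absolute depth is unknown, so values near 1 FPKM carry a counting error that cannot be given.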
